A study of Mus musculus with 12 samples.

Results

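The genes described here encode the protein components of the cytosolic ribosome. They were chosen by symbol: names made of Rpl, Rps or Rplp, a number and at most 1 trailing a, x or l, together with Rpsa, and without Rps27l and Rpl3l. This picked 81 of the 46095 genes in the count table, 50 of the large subunit and 31 of the small subunit, from 19 chromosomes. GENCODE M21 lists 78 of the 81 as protein coding and the other three (Rpl6l, Rpl32l and Rps4l) as processed or transcribed processed pseudogenes. The tissue was liver carrying hepatocellular carcinoma that diethylnitrosamine, a carcinogen activated in hepatocytes, had induced in mice. There were 7 libraries from Pck1-null animals (KO) and 5 from wild-type animals (WT), so tumour induction was shared by both groups and the genotype was the labelled difference. Pck1 encodes the cytosolic phosphoenolpyruvate carboxykinase, the enzyme that commits oxaloacetate to gluconeogenesis. Strain, sex, age at sampling, carcinogen dose, the cells in which Pck1 was lost and whether each library came from its own animal have no entry in the sources used here.

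A ribosome is built from a large and a small subunit, each a core of ribosomal RNA dressed with proteins that are made in the cytoplasm, imported into the nucleolus and assembled there. Ribosomal protein messages begin with a run of pyrimidines at the very first base, the terminal oligopyrimidine tract, through which growth signalling by mTORC1 and the binding protein LARP1 sets their translation. Their short, abundant messages have also been copied back into the genome many times as intronless processed pseudogenes, so a sequencing read from a ribosomal protein message can match several places.

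The libraries held between 17462102 and 46747125 counts. They fell into 5 deeper libraries (KO replicates 4, 5 and 6 and WT replicates 2 and 5, from 43071365 counts) and 7 shallower ones (up to 23663506 counts). Among the KO libraries the 3 deeper ones are those whose titles are written in lower case, while the WT titles show no such difference, and no label names a batch. The split is used below as a depth class. Pck1 itself stood at 111 to 1167 CPM (each library's counts scaled to a common total, with factors from the trimmed mean of M-values, TMM) in KO and at 1063 to 5822 CPM in WT. Its log2 fold change was -3.28 ± 0.67 (SE; adjusted p = 0.17 by edgeR's quasi-likelihood test), with 1 KO library inside the WT range. The hepatocyte gene Alb took 3.11 to 11.8% of the counts, so a defining hepatocyte marker was high in every library. Xist, which is expressed from the inactive X chromosome in female cells, exceeded 10 CPM in 5 of the KO libraries (all but replicates 4 and 7) and in 1 WT library (replicate 4).

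Ribosomal protein genes took a larger share of the counts in the KO tumours. The share was 1.72, 1.64, 1.45, 1.57, 1.38, 1.43 and 2.07% in KO replicates 1 to 7 and 1.25, 1.18, 1.07, 1.38 and 1.05% in WT replicates 1 to 5. KO replicate 7 was the highest library, and the lowest KO library (replicate 5, 1.382%) lay just above the highest WT library (replicate 4, 1.377%). The exact 95% binomial intervals of those 2 libraries overlapped (1.3789 to 1.3859% and 1.3717 to 1.3824%). Intervals of this kind cover counting error only. The group means were 1.61 ± 0.238% (SD, n = 7) and 1.186 ± 0.135% (SD, n = 5), and as a score over chosen genes they carry no test. Among deeper libraries the share was 1.38 to 1.57% in KO against 1.05 to 1.18% in WT, and among shallower ones 1.45 to 2.07% against 1.07 to 1.38%. In bulk tissue, a change in the cells present and a change in the RNA of each cell cannot be told apart.

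**Figure D1:**
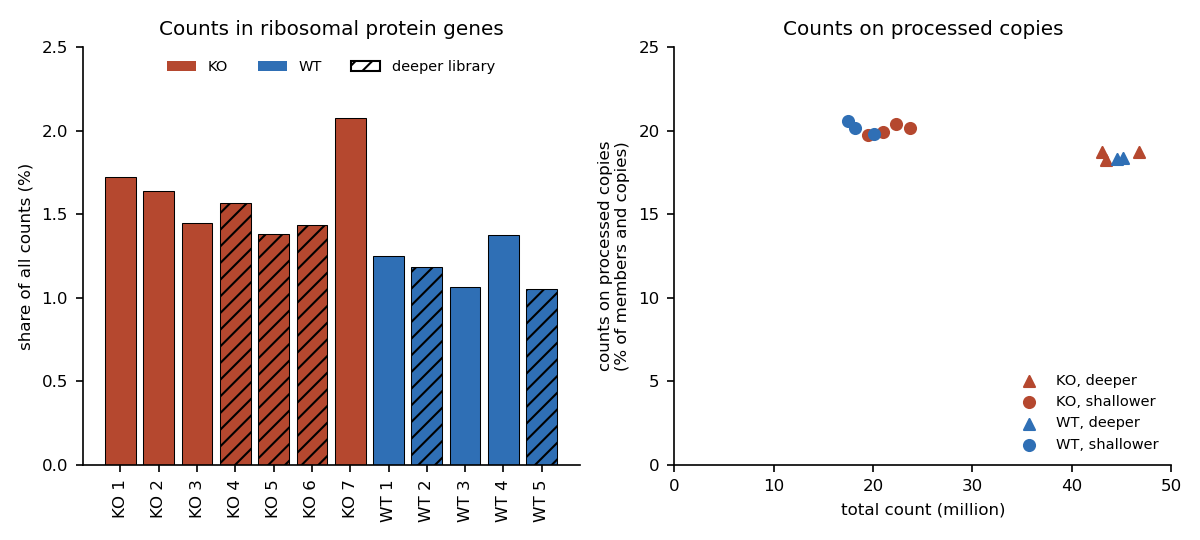
Left, bars give the share of all counts in the ribosomal protein genes (percent) in each of the 12 libraries, hatched for deeper libraries; right, points give the share of counts on annotated pseudogene copies (percent of members and copies) against the total count. KO libraries lie between 1.38 and 2.07% and WT libraries between 1.05 and 1.38%, with KO replicate 7 at the top, while on the right the libraries part by depth (18.2 to 18.7% against 19.7 to 20.6%) and not by genotype.

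Scaled by TMM, the members' mean log2 CPM was 6.33 ± 0.28 (SD, n = 7) in KO and 6.07 ± 0.13 (SD, n = 5) in WT, and the ranges overlapped (5.99 to 6.78 against 5.93 to 6.22). The TMM factors ran from 0.816 in WT replicate 3 to 1.2 in KO replicate 4. KO replicate 7 gave the highest value of 59 of the 77 members that passed the filter on low counts, followed by KO replicate 1 with 8 and KO replicate 2 with 6. The lowest value of a member fell in KO replicate 5 for 19 members, in WT replicate 2 for 18, in WT replicate 5 for 16 and in WT replicate 4 for 14. Members moved largely as a block across libraries: over the 12 libraries the median Pearson correlation between 2 members was 0.69, with quartiles of 0.49 and 0.82, and 178 of 2926 pairs were negative. These correlations describe values that share libraries, scaling and, for some members, reads. They also include the differences between genotypes and between deeper and shallower libraries, and no value for other genes stands beside them.

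**Figure D2:**
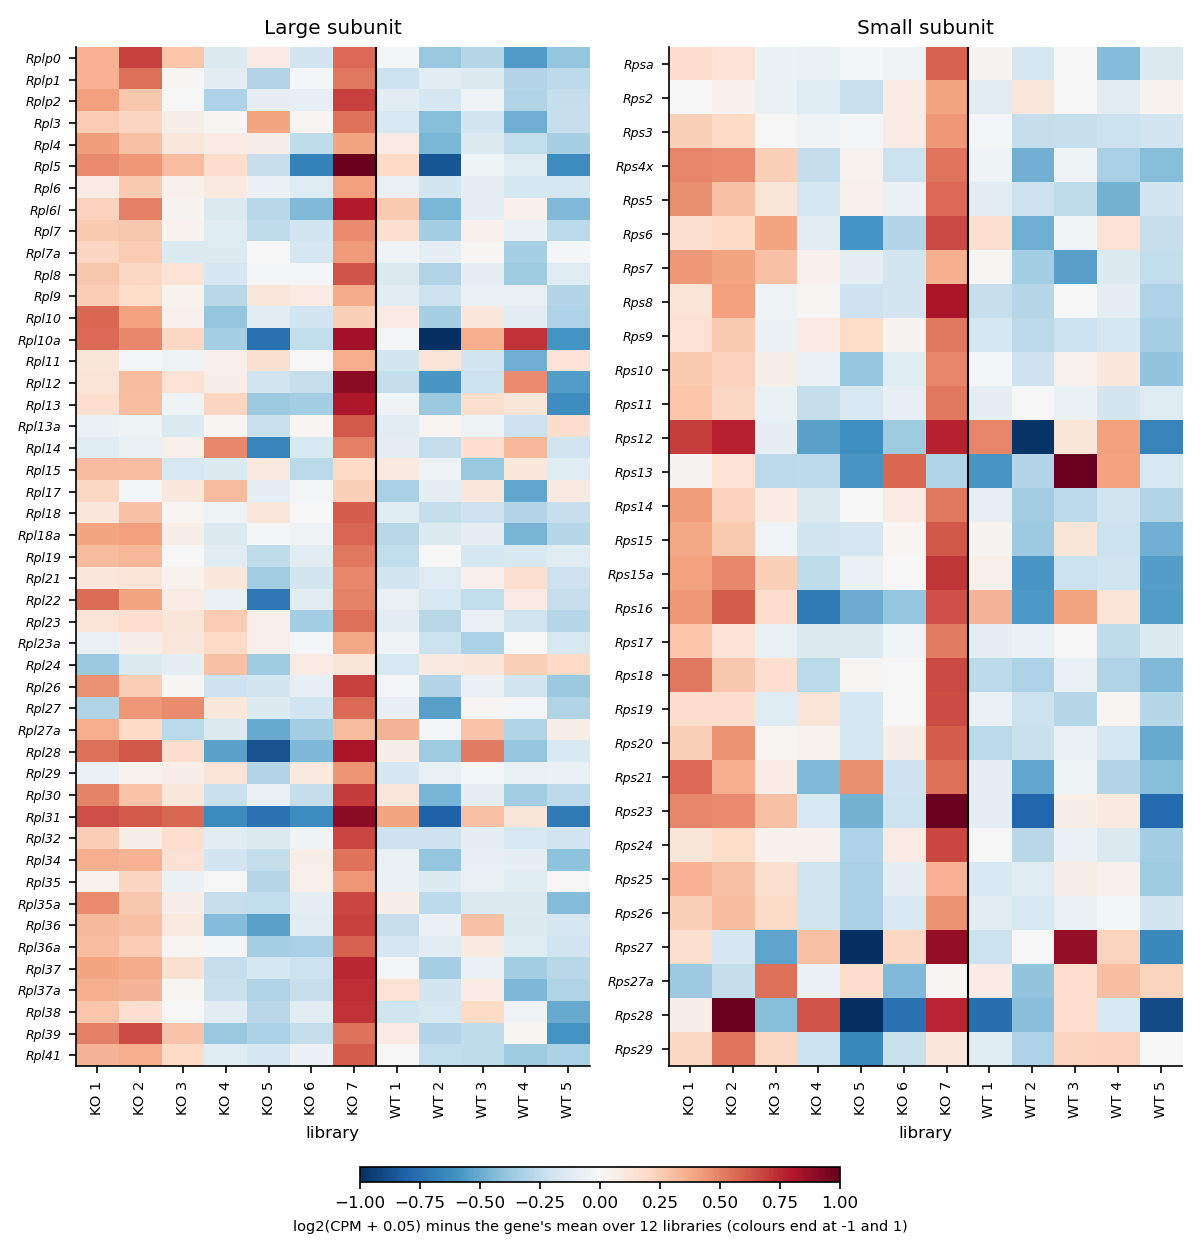
Deviation of each of the 77 tested members from its own mean over the 12 libraries (columns), as log2 of CPM plus 0.05 on a colour scale that ends at -1 and 1, with large and small subunit members in separate panels. Counted on log2 CPM with a prior count of 2, KO replicate 7 is above the mean in 76 members, KO replicate 2 in 70 and KO replicate 1 in 69. On that scale WT replicate 2 is above it in 5 and WT replicate 5 in 8.

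The comparison of KO with WT asks how loss of Pck1 changes the tumour's ribosomal protein messages. By edgeR 0 of the 77 tested members passed an adjusted p of 0.05, as did 0.0% of the 14666 genes tested. Of the 77, 72 had a fitted log2 fold change above 0, against 53.7% of all genes. Before adjustment, 22 members (28.6%) were higher in KO at p under 0.05 and 0 were lower, where 7.25% of all genes were higher and 7.44% lower. The 22 comprised 12 of 47 large subunit and 10 of 30 small subunit members, with log2 fold changes of 0.25 to 0.58. The median log2 fold change was 0.27 over the members and 0.03 over all genes. DESeq2 called 4 members higher after adjustment (Rpl3, Rplp0, Rps14 and Rps9; 1.72% of all genes were called higher), limma-voom with sample weights called 23 (6.4% of all genes; unadjusted 53 members, 16.4% of all genes) and limma-voom without weights called 0 (0.00682%; unadjusted 23 members, 6.25% of all genes).

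The 3 members whose KO libraries all lay above every WT library were Rpl3, Rps9 and Rpl18, where 0.634% of all genes showed such a gap. Rpl3, a core protein at the peptidyl transferase centre of the large subunit, had 188, 216 and 272 CPM as the lowest, median and highest KO value and 167, 139, 163, 133 and 159 CPM in WT replicates 1 to 5. Its log2 fold change was 0.52 ± 0.14 (SE), or 1.44-fold, with an adjusted p of 0.195 by edgeR and of 0.00558 by DESeq2. The gene lies on chromosome 15 (80077791 to 80091868, minus strand, GRCm38), and only 16.8% of the 75-base stretches of its transcript were found in no other annotated gene. Its copy with the most counts, the X-linked Rpl3-ps1, differed at 2 of 1209 coding bases and held 52249 counts in the 12 libraries against 70529 for Rpl3. That copy had a log2 fold change of 0.53 (adjusted p = 0.209), beside the 0.52 of Rpl3.

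Rps9, a small subunit protein that binds ribosomal RNA early in assembly, ran from 396 CPM through a median of 455 to 594 CPM in KO and stood at 364, 342, 354, 365 and 326 CPM in WT. The fold change was 0.41 ± 0.14 on the log2 scale (adjusted p = 0.246). Its single listed copy held 236 counts against 154104 for Rps9. Rpl18, a large subunit protein, ran from 274 through 305 to 432 CPM in KO and from 231 to 261 CPM in WT, a log2 fold change of 0.39 ± 0.14. Neither group overlapped the other for these 2 genes, and KO replicate 7 was the highest library of both.

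The other members with the smallest p in this direction overlapped between groups. Rplp0, the scaffold of the acidic stalk that recruits elongation factors, gave 1154, 1454, 1096, 824, 959, 794 and 1337 CPM in KO replicates 1 to 7 and 893, 697, 744, 611 and 694 CPM in WT. Here the 4 shallower KO libraries were the highest, and WT replicate 1 lay above KO replicates 4 and 6. The log2 fold change was 0.58 ± 0.20 (1.5-fold, adjusted p = 0.246), and it was 0.75 among shallower and 0.30 among deeper libraries. Rps18, a protein of the small subunit head, ran from 30.6 through 41.4 to 58.2 CPM in KO and from 27.1 to 35.1 CPM in WT (log2 fold change 0.50 ± 0.16, adjusted p = 0.221). Rps20 had 157, 185 and 269 CPM as the lowest, median and highest KO value and 125 to 169 CPM in WT (0.44 ± 0.16 on the log2 scale, adjusted p = 0.251). Rps7, which takes part in the processing of the small subunit RNA, had 168, 234 and 258 CPM in KO and 131 to 192 CPM in WT, with the same fitted size and adjusted p as Rps20 after rounding. For each of these 3 small subunit genes 5 or 6 of the 7 KO libraries were above every WT library.

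The fitted value was below 0 in 5 members, each with an adjusted p above 0.6. Rpl24, which forms a bridge between the subunits, had 49.2, 59.5 and 78.2 CPM as the lowest, median and highest KO value and 56.9 to 75.1 CPM in WT (log2 fold change -0.15 ± 0.14, adjusted p = 0.618). Rps13 was fitted at -0.35 ± 0.39 (adjusted p = 0.687) on levels of only 0.532 to 2.11 CPM, with WT replicate 3 as the highest library. Rpl27a (-0.11 ± 0.18), Rps27a (-0.11 ± 0.21), the gene for a fusion of ubiquitin with a small subunit protein, and Rps27, a zinc-binding protein (-0.05 ± 0.37), had standard errors larger than their fitted values.

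**Figure D3:**
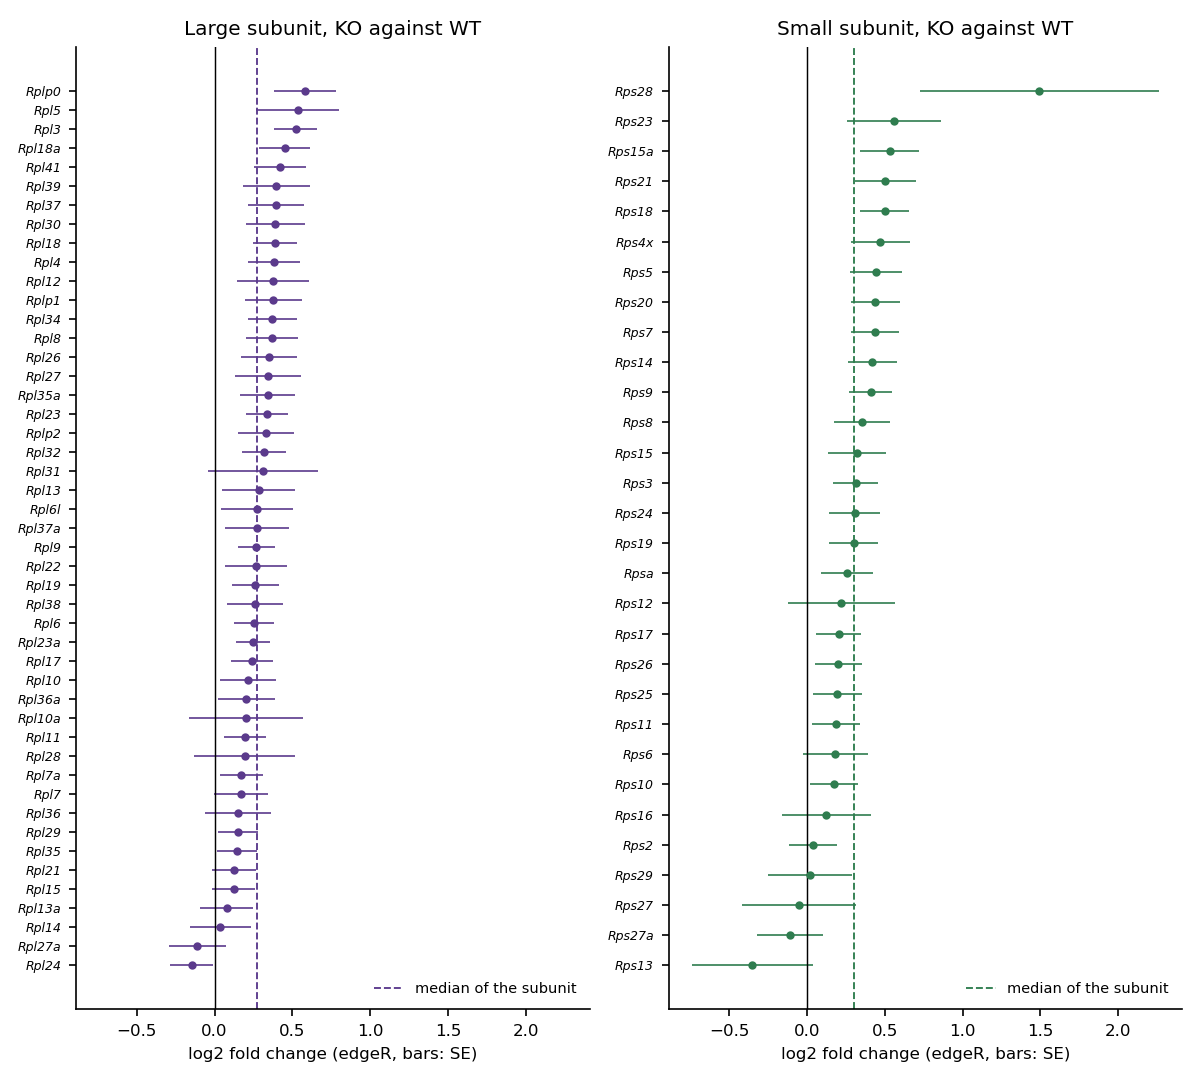
Fitted log2 fold change of KO over WT with its standard error (horizontal axis) for the tested members, with large and small subunit in separate panels and a dashed line at each subunit's median (0.27 and 0.30). Of the 77 members, 72 lie to the right of 0, and the 5 to the left are Rpl24, Rps13, Rpl27a, Rps27a and Rps27.

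By role, the lateral stalk genes were fitted higher in KO, like most tested members. Rplp1, which binds Rplp0 as an acidic heterodimer with Rplp2, had 519, 644 and 935 CPM as the lowest, median and highest KO value against 519 to 591 CPM in WT, a log2 fold change of 0.38 ± 0.19 (adjusted p = 0.368). Rplp2, its partner, had 187, 232 and 372 CPM in KO against 188 to 226 CPM in WT, a log2 fold change of 0.33 ± 0.18 (adjusted p = 0.402). Both overlapped between groups: 5 of the 7 KO libraries lay above every WT library for Rplp1 and 4 for Rplp2. Rpsa, also known as the laminin receptor precursor, had 515, 537 and 819 CPM in KO against 401 to 554 CPM in WT (0.26 ± 0.17 on the log2 scale), with KO replicate 7 apart from all others. Rps6, the small subunit protein phosphorylated by S6 kinase, had 10.8, 18.2 and 25.8 CPM in KO against 11.6 to 18.2 CPM in WT, with a log2 fold change of 0.18 ± 0.21 and overlapping groups.

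Rpl5 and Rpl11 form, with the 5S ribosomal RNA, the particle that binds the p53 ligase Mdm2 when ribosome assembly fails. Rpl5 had 16.9, 33.5 and 53.5 CPM as the lowest, median and highest KO value against 14.9 to 31 CPM in WT (log2 fold change 0.53 ± 0.27, adjusted p = 0.376). Rpl11 had 115 to 153 CPM in KO against 84.8 to 130.4 CPM in WT (0.20 ± 0.14 on the log2 scale, adjusted p = 0.508). The Rpl5 values had a wide spread in both groups and the Rpl11 values a narrow one, and both overlapped. The X-linked members were Rps4x, Rpl39, Rpl10 and Rpl36a. Rps4x was fitted at 0.47 ± 0.19 (adjusted p = 0.292). Rpl39, a short protein at the exit tunnel, was fitted at 0.40 ± 0.22 (0.407) and Rpl10, which joins the large subunit last, at 0.22 ± 0.18 (0.593). Rpl22, a non-essential large subunit protein with a paralog, was fitted at 0.27 ± 0.20 (adjusted p = 0.542).

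The 4 members that did not pass the filter on low counts were not tested. Rpl10l, which stands in for Rpl10 in male germ cells, had 0 counts in every library, which allows up to 0.0536 CPM in the library with the largest TMM-scaled size and 0.211 CPM in that with the smallest (3 counts per library). Rpl39l had 22 counts in all, 20 of them in KO replicate 6. Rps4l had 88 counts, 31 of them in WT replicate 1, and Rpl32l had 8. The 4 are accounted for among the 81, and counts over the 77 that passed the filter do not cover them.

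Large and small subunit genes had like fold changes. The median log2 fold change was 0.27 over the 47 large subunit members and 0.30 over the 30 small subunit members. By library, the mean log2 CPM of large subunit members exceeded that of small subunit members by 0.20 to 0.38. This excess was 0.29 ± 0.05 (SD, n = 7) in KO and 0.30 ± 0.07 (SD, n = 5) in WT, and the groups overlapped. The summed counts of large over small subunit members were 1.21 to 1.36 in ratio over all 12 libraries.

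The excess of KO over WT was fitted larger among the shallower libraries. Fitted on the 4 KO and 3 WT shallower libraries alone, the members' median log2 fold change was 0.37 (all genes -0.01), and 22 members were higher at an unadjusted p under 0.05 (5.18% of all genes). Fitted on the 3 KO and 2 WT deeper libraries alone, the median was 0.15 (all genes 0.07), with 58 of 77 above 0 (55.2% of all genes) and 0 at an unadjusted p under 0.05 (6.02% of all genes). The difference between these 2 sets was not tested. With the depth class as a covariate 33 members (42.9%) were higher at an unadjusted p under 0.05 (7.61% of all genes). Adjusting for the Xist class instead left 23 (5.35% of all genes) and a median of 0.36. The depth covariate together with the copies' counts described below gave 46 (7.62% of all genes). Scaling by total count alone moved the median of all genes from 0.03 to 0.16 and the split of genes at an unadjusted p under 0.05 from 1064 higher and 1091 lower to 1820 higher and 555 lower. Under that scaling 42 members were higher (12.4% of all genes), with a median of 0.40.

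Single libraries carried part of the count. Without WT replicate 2, 12 members were higher at p under 0.05 before adjustment (4.95% of all genes), without WT replicate 5 it was 13 (5.27%), and without KO replicate 5 it was 35 (7.14%). Without KO replicate 7, the library with the highest ribosomal protein share, it was 15 (6.66% of all genes) and the median log2 fold change was 0.20. The title of KO replicate 7 has another prefix than those of the other KO libraries, while its genotype entry is the same.

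The start of a ribosomal protein message is the part read by growth signalling, and RefSeq promoters (GRCm38.p6) were found for 59 members among the 17491 genes that RefSeq types as protein coding. RefSeq counts Rpl32l among these, whereas GENCODE lists it as a pseudogene. The windows below run from 30 bases before to 20 bases from the annotated first base, on the strand of the gene, and the capitals mark the unbroken run of C and T that covers that base. They show members named for their KO and WT values or their role, Rpl31 for its difference between depth classes, and Rplp0, whose annotated start has no such run.
Rps18, chr17:33955646-33955695, minus strand: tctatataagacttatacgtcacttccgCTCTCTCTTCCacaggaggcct
Rps9, chr7:3704011-3704060, plus strand: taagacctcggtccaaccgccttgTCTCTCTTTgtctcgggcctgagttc
Rplp2, chr7:141447621-141447670, plus strand: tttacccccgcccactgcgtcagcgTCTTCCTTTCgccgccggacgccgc
Rps6, chr4:86857348-86857397, minus strand: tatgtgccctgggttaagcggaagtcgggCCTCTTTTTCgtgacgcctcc
Rpl27a, chr7:109519165-109519214, plus strand: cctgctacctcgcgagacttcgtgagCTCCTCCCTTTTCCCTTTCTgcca
Rpl31, chr1:39367821-39367870, plus strand: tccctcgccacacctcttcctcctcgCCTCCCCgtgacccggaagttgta
Rplp0, chr5:115559437-115559486, plus strand: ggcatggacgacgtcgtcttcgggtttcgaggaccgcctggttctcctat

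Where a gene had several annotated starts, 1 match was enough. A pyrimidine run of at least 5 bases covered the annotated start in 21 of the 59 members (35.6%) and in 10.2% of the protein-coding genes. A run of at least 8 bases lay within 25 bases on either side of the start in 32 members (54.2%) and in 22.0% of the protein-coding genes. On the strand of the gene, CTTTC in the same window was present in 19 members (32.2%) against 7.12%, and it can fall inside such a run. CCGGAAG, searched on both strands over the 300 bases of the table, was present in 24 members (40.7%) against 12.9%, and CACGTG, which reads the same on both strands, in 6 (10.2%) against 8.91%. TATAAA on the strand of the gene in the 50 bases before the start was found in 0 of the 59 members and in 3.81% of the protein-coding genes. Rpl27a has one of the longest runs and was fitted below 0 in KO, Rps18 and Rps9 have runs of 11 and 9 bases and were among the members with the smallest p, and Rplp0 was among them with none. A match is a string in an annotated window, and RefSeq starts can be some bases off the starts used in liver.

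Levels differed among the members far more than among libraries, although a ribosome holds most of these proteins in equal number. Per kilobase of annotated transcript, the highest mean levels in the large subunit were those of Rplp1 (1306 CPM per kilobase), Rpl41, the shortest of the ribosomal proteins (719), and Rplp0 (691). In the small subunit they were those of Rps14 on the platform (919), Rps2 (857) and Rps15 in the head (711). The lowest levels were 4.64 for Rpl28, 6.58 for Rpl10a, the protein of the L1 stalk, and 9.34 for Rpl27 in the large subunit, and 1.51 for Rps13, 4.25 for Rps29 and 4.54 for Rps28 in the small subunit. Long annotated models of Rps15a and Rps20 lower their values on this scale.

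Many members share sequence with annotated copies. RefSeq and GENCODE list 680 pseudogenes that share at least 1 stretch of 75 bases with a member, 488 of which have a row in the count table and 395 of which have counts. In 26 of the 77 tested members (16 large and 10 small subunit) the copies' counts exceeded the member's own. The median level was 15.3 CPM per kilobase in these 26 and 259 in the other 51, a difference that the split itself fixes in part, since it uses the members' own counts. Adding the copies' counts brought the medians to 135 and 305, and the SD of the members' log2 levels from 2.345 to 1.497. Rps13 had 307 counts over the 12 libraries against 34081 for its copies, Rps28 had 537 against 26632, Rps29 had 573 against 17836, and Rpl10a had 1768 against 42189. Genes not typed as pseudogenes were not counted as copies. Rps27 had 848 counts, and only 1.48% of its 75-base stretches were found in no other annotated gene. Rps27rt, which is not among the copies counted for it, had 4660 counts. The sources used here do not say how reads that match several places were counted.

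**Figure D4:**
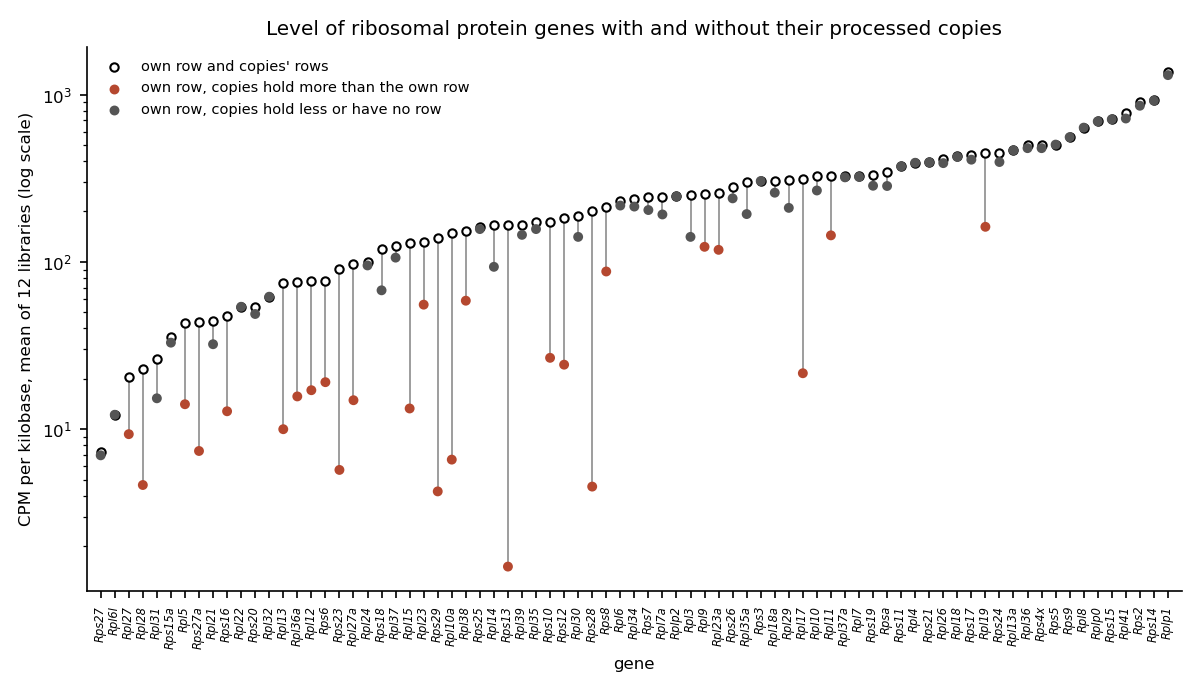
Mean level of each tested member (CPM per kilobase of annotated transcript, log axis) from its own counts and with the counts of its annotated copies added, ordered by the level with copies. Filled points are own levels, red where copies hold more counts than the member, and open points include the copies. Own levels run from 1.51 for Rps13 to 1306 for Rplp1, and most of the lowest members move up when the copies are added, Rps13 to 166.

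Coding stretches show how close members and copies are. Each pair gives 60 coding bases of the member and of its copy with the most counts in GRCm38, on the strand of the gene, and capitals mark a base that differs within the pair. Rps13 is shown because nearly all counts of its family sat on copies, and its pair differs at 2 of 453 coding bases, 1 of them in this stretch. Rps28 and Rpl31 are shown because member and copy are identical over their whole coding sequence, and Rpl31 also had the smallest p between depth classes.
Rps13, chr7:116332379-116332438, minus strand: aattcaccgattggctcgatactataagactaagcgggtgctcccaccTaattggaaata
Rps13-ps1, chr8:87048082-87048141, plus strand: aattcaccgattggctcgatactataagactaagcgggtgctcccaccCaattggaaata
Rps28, chr17:33823271-33823330, minus strand: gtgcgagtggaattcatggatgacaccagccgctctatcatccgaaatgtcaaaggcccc
Gm10443, chr6:86334118-86334177, plus strand: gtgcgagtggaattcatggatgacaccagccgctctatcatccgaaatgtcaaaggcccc
Rpl31, chr1:39368149-39368208, plus strand: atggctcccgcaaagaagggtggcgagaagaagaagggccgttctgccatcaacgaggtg
Rpl31-ps8, chr15:90764597-90764656, minus strand: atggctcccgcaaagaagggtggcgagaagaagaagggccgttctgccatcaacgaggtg

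Members and copies on chromosome 18 were left out of the alignments. Rpl27-ps3 (2078 counts) and Rps2-ps10 (3858 counts) were thus not aligned, although they held more counts than the aligned copies of Rpl27 and Rps2. Of the 70 members aligned with their most counted copy among those left, 16 had no differing coding base, and the median identity was 99.5%. Among the 26 members with more counts on copies than on themselves, 14 belonged to these 16, against 2 of the other 51. Gm10443 held 21032 counts against 537 for Rps28, while Rpl31-ps8 held 3185 against 5062 for Rpl31. Among identical pairs, then, either the member or the copy held more counts. In the KO and WT comparison, the 26 members had a median log2 fold change of 0.23 with 3 of them at an unadjusted p under 0.05, and the 51 had 0.32 with 19, where 7.25% of all genes were higher. With the copies' counts added to each member, 75 of 77 were fitted above 0 (53.6% of all genes), the median was 0.32, and 26 were higher at an unadjusted p under 0.05 (7.36% of all genes).

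Members were also compared between depth classes. With genotype in the model, 5 of 77 members were lower in the deeper libraries at an adjusted p under 0.05 by edgeR (0.655% of all genes) and 0 were higher (0.0409%), with 0 higher before adjustment as well (6.39% of all genes). At an unadjusted p, 36 members (46.8%) were lower, where 8.05% of all genes were, and 74 of 77 were fitted below 0 (48.1% of all genes). The median was -0.34 over the members (-0.33 large, -0.36 small subunit) and 0.02 over all genes. In 11 members every deeper library lay below every shallower one (1.49% of all genes). DESeq2 called 24 members lower (3.35% of all genes), among them all 5, and limma-voom called 6 with sample weights (0.927%) and 6 without (0.75%). The order of the 2 comparisons depended on the tool. By edgeR, DESeq2 and limma-voom without weights more members were called by depth than by genotype, and by limma-voom with weights fewer (6 against 23). The number was 3 without a filter (0.152% of all genes), 2 with total counts as the scale (0.266%) and 3 with upper quartile scaling (0.539%).

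Rpl31, a protein at the rim of the exit tunnel, had 8.33, 8.73, 8.93, 9.4 and 9.42 CPM in the deeper libraries and a lowest, median and highest value of 15.9, 21.8 and 27.3 CPM in the shallower ones. It was 2.34-fold lower in the deeper libraries (log2 -1.22 ± 0.12, adjusted p = 0.000791). Rps16, a small subunit protein whose tail reaches the peptidyl site, had 8.22 to 10.3 CPM against 14.7, 17.7 and 21.1 CPM (-0.94 ± 0.13 on the log2 scale, adjusted p = 0.00703). Rps12, at the beak of the small subunit, had 6.62 to 10.2 CPM against 12.2, 18.4 and 22.5 CPM (-1.12 ± 0.17, adjusted p = 0.0124). In these 3 genes the classes did not overlap, and both genotypes lay on the same side within each class. Rpl10a (-1.10 ± 0.22, adjusted p = 0.0471) and Rpl39 (-0.64 ± 0.13, adjusted p = 0.0483) were the other 2 called. Without 1 library the number called was 2 to 4, Rpl31 and Rps16 were called in all 12 such fits, Rps12 in 10, Rpl39 in 1 and Rpl10a in 0. At the other end, Rpl11 was fitted at 0.15 ± 0.13, Rpl24 at 0.12 ± 0.14 and Rpl17 at 0.06 ± 0.14 in the deeper libraries.

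Copies that passed the filter on low counts were also fitted lower in the deeper libraries. Of the 395 copies with counts, 173 passed it, and 27 of these were lower at an adjusted p under 0.05 (0.655% of all genes). At an unadjusted p under 0.05, 118 were lower (8.05% of all genes), and the copies' median log2 fold change was -0.60. Copies made up 27 of the 96 genes called lower over the whole table, and members made up 5. The filter took no account of depth class, so a faint copy could pass on its shallower libraries alone. Rps15a-ps5, for example, had 0.197 to 0.41 CPM in the deeper and 0.533 to 1.45 CPM in the shallower libraries. The number of copies called and their median thus depend in part on the filter, and are no measure against the members. Copies held 18.5 ± 0.227% (SD, n = 5) of the counts of members and copies together in the deeper libraries and 20.1 ± 0.322% (SD, n = 7) in the shallower ones, with no overlap (18.2 to 18.7% against 19.7 to 20.6%). In KO and WT that share was 19.4 ± 0.845% and 19.4 ± 1.03%. With the copies added to each member, 5 members were called lower (0.366% of all genes), and 3 of them (Rpl31, Rps12 and Rps16) were among the 5 called without. In KO against WT the copies' median log2 fold change was 0.29, with 154 of 173 above 0 (53.7% of all genes) and 19 higher at an unadjusted p under 0.05 (7.25% of all genes). The sources used here state neither the read length nor the sequencing run, and what else differed between the depth classes was not tested.

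**Figure D5:**
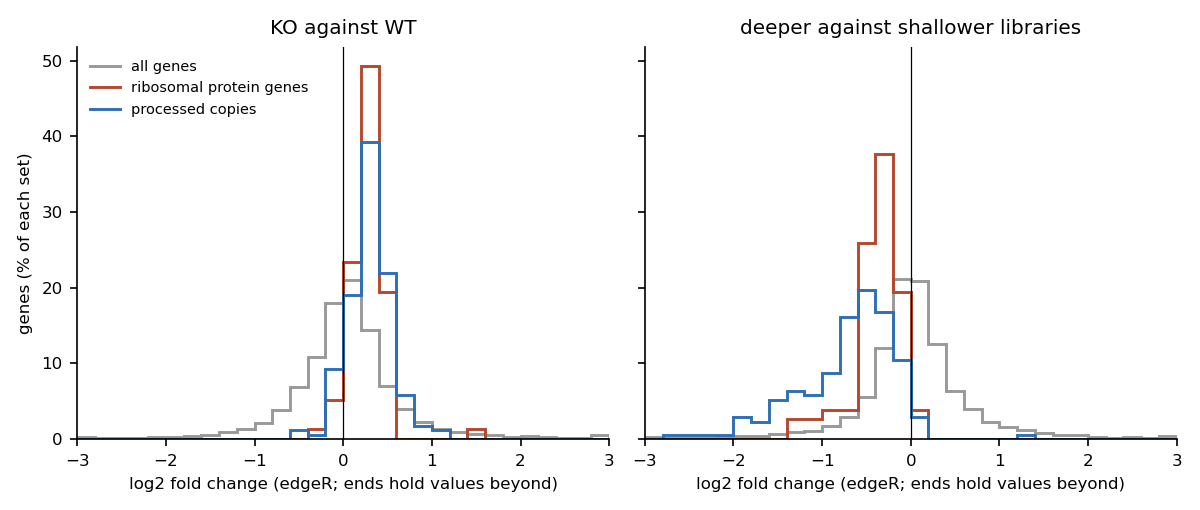
Distributions of fitted log2 fold changes (horizontal axis, in bins; vertical axis, percent of genes) for members, their copies and all genes that passed the filter, for KO over WT and for deeper over shallower libraries. Members and copies have medians of 0.27 and 0.29 for KO over WT, and of -0.34 and -0.60 for deeper over shallower, where all genes have 0.03 and 0.02.

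Variation over the 12 libraries was uneven among members. Rps28 had the largest SD of log2 CPM (1.16), which came from KO replicate 2 at 10.3 CPM against 0.399 to 1.93 CPM in the other 11 libraries, and its log2 fold change in KO was 1.49 ± 0.77 (adjusted p = 0.385). Rpl31 (0.65) and Rpl10a (0.64) followed, both among the genes called between depth classes. The steadiest were Rps2, which lines the entry channel of the messenger RNA (SD 0.16, 729 to 1115 CPM), Rpl29 (0.18) and Rpl35 (0.18). Rps2 was fitted at 0.04 ± 0.15 in KO.

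Other genes of ribosome synthesis and use were read from lists that hold no member. In each of them 0 genes passed an adjusted p of 0.05 by edgeR in KO against WT. Rack1, a small subunit scaffold named outside the symbol rule, was fitted at 0.56 ± 0.16 (adjusted p = 0.211), while Fau, which encodes a small subunit protein fused to a ubiquitin-like one, was at -0.05 ± 0.19. Of 4 tested paralogs outside the rule, Rpl22l1, which can stand in for Rpl22, was at 0.74 ± 0.22 (adjusted p = 0.216) and Rpl7l1 at -0.31 ± 0.12 (adjusted p = 0.273). Of 37 ribosome biogenesis genes 26 were above 0 (53.7% of all genes), and their median was 0.13. Before adjustment 5 of them were higher (7.25% of all genes) and 2 were lower (7.44%) at p under 0.05. The assembly factors Ltv1 (0.43), Nmd3 (0.43) and Eif6 (0.51) had the smallest p of that list. The 11 genes of RNA polymerase I and its factors had a median of 0.01 and 0 at an unadjusted p under 0.05.

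For the lists that follow, 53.7% of all genes were fitted above 0 and 46.3% below. At an unadjusted p under 0.05, 7.25% of all genes were higher and 7.44% lower. Translation factors whose messages also start with a pyrimidine tract had a median of 0.26, with 17 of 19 above 0 and 2 higher at an unadjusted p under 0.05 (Eif3f at 0.32 and Eif3m at 0.27). The snoRNA host genes, several of which share that feature, had a median of 0.26, with 9 of 10 above 0 and 2 higher (Snhg5 at 0.84 and Snhg15 at 0.95). Of the members, 29 hold a total of 56 annotated snoRNAs (or the related scaRNAs) within their gene bounds, on the same strand. Regulators of ribosomal protein synthesis had a median of 0.04 over 18 genes, with Eif4ebp1, the translational brake downstream of mTORC1, at 0.47 ± 0.16 (adjusted p = 0.246) as the only one at an unadjusted p under 0.05. The p53 and nucleolar stress list had 7 of 9 above 0, with Bax at 0.58 (adjusted p = 0.218) and Mdm2 at 0.25 ± 0.22. Nuclear-encoded genes of oxidative phosphorylation ran the other way, with 42 of 44 below 0, 15 lower at an unadjusted p under 0.05 and a median of -0.47.

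Several marker lists moved with genotype or library beside these values. Neutrophil markers were above 0 in 7 of 7 genes (median 3.79), all 7 at an unadjusted p under 0.05, and their summed level was 25.8 to 1559 CPM in KO against 20.2 to 53.4 CPM in WT. Their mean log2 CPM was highest in KO replicates 3 (7.43), 6 (5.24) and 4 (4.76), while KO replicate 7, the top library for ribosomal proteins, was at 0.86, within the WT range of 0.66 to 2.19. Proliferation genes were above 0 in 15 of 15 (median 0.67), 2 of them at an unadjusted p under 0.05, with summed levels of 98.5 to 289.9 CPM in KO and 51.4 to 149 CPM in WT. Endothelial markers were below 0 in 4 of 4 (median -1.11), 3 of them at an unadjusted p under 0.05, at 76.4 to 328 CPM against 201 to 351 CPM. Hepatocyte markers were below 0 in 5 of 6 (median -0.39), 1 of them at that p, with overlapping sums of 54976 to 143873 and 49142 to 148882 CPM. Stroma markers were below 0 in 4 of 4 (median -0.61), macrophage markers in 3 of 5 (-0.22), erythroid markers in 1 of 5 (0.52), B and plasma cell markers in 1 of 3 (0.08), T and NK cell markers in 0 of 5 (0.63) and cholangiocyte markers in 1 of 4 (0.18). The sums of these 6 lists overlapped between KO and WT. Nuclear-retained RNAs had a median of -0.68 in KO over 4 genes and of -1.69 in the deeper libraries, where the members were also lower. The part of these lists in the ribosomal protein values was not tested.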

How the data were processed

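RNA was extracted with Trizol, samples with an RIN over 8.0 went to Illumina libraries, and reads were aligned with HISAT2 to mm10, per the labels' protocols and the submitters' processing notes. The authors deposited raw counts per gene symbol for the 12 libraries. The sources used here do not state the counting program, strand setting, annotation or treatment of reads that match several places, and overlapping, antisense and near-identical genes cannot be told apart.

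Genes were kept by filterByExpr (minimum count 10, minimum total 15), which left 14666. Tests used edgeR 4.0.16 (R 4.3.3; TMM, robust quasi-likelihood F-tests, Benjamini-Hochberg at 0.05 over all genes), KO against WT and, with genotype in the model, deeper against shallower libraries. The SE was taken from the fold change and the F statistic. The common biological coefficient of variation was 0.49, and the fit was tested on simulated data. DESeq2 1.42.0 and limma-voom 3.58.1 were alternatives. CPM are TMM-scaled, and log2 CPM use a prior count of 2. Replicates were numbered in accession order, and since no label ties libraries to separate animals, p-values reflect only the spread between libraries, which may be technical. Exact intervals are Clopper-Pearson at 95%.

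Copies are annotated pseudogenes sharing at least 1 stretch of 75 bases with a member's GENCODE M21 transcript; that length was set by choice, and added copies were an alternative chosen after seeing the data. Members and lists were chosen with earlier results of these data known. Members were named for having the 6 smallest p in each direction of KO against WT (only 5 were below 0), the 3 smallest by depth, the 3 largest and smallest SDs, the 3 highest and lowest levels per kilobase in each subunit, or their role. Rpl18 and Rps14 were named after their values were seen.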

Additional observations from a re-analysis of the deposited data

Results flagged for a closer look

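Among 78 sets of values in groups of 4 to 10 libraries, 1 held a library far from the rest by Dixon's test at the 95% level, which chance gives for about 1 group in 20. It was Rpsa in KO replicate 7, at a log2 CPM of 9.68 where the nearest KO library was at 9.26, a gap of 0.627 of the group's range. The same library had the highest value of 59 of the 77 tested members.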

How the results depend on the processing

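In KO against WT, the number of members higher after adjustment was 0 by edgeR in every alternative of scaling, filter, covariate and left-out library, 4 by DESeq2 and 23 by limma-voom with sample weights. At an unadjusted p under 0.05 it was 22 in the main analysis, 0 in deeper libraries only, 42 with total count only, 53 by limma-voom with weights (16.4% of all genes), 46 with the depth class as covariate and copies added (7.62% of all genes, chosen after seeing the data), and 12 to 35 with 1 library left out. No alternative gave a lower member. The median log2 fold change stayed above 0, from 0.15 to 0.41, and from 0.20 to 0.34 with 1 library left out. Large minus small subunit was -0.031, and -0.094 in deeper libraries only, with a range of -0.047 to 0.038 when 1 library was left out, so its sign is not fixed. For deeper against shallower libraries, the 5 members called lower became 24 by DESeq2, 3 without a filter, 2 with total count only, 3 with upper quartile scaling and 2 to 4 with 1 library left out. The cause of these differences was not tested. The difference in the share of counts was 0.42 percentage points, and 0.42 and 0.53 under its alternatives. For the 36 named members that were tested, 15 of 1043 alternative values in KO against WT passed the threshold that the main value missed, 38 of 899 between depth classes no longer passed it and 11 newly did, and 0 reversed. No paired analysis was possible because replicate numbers follow accession order and pair no samples. Members with few counts, such as Rps13, Rps28 and Rps29, were measured least precisely.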
